A study of Rattus norvegicus with 36 samples.

Results

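The interferon-stimulated genes described here are 42 genes known to be switched on by interferons, followed in the mammary glands of 2 inbred rat strains, Cop (Copenhagen) and F344 (Fischer). They were taken by gene symbol from the platform annotation of an Affymetrix rat expression array. The members, and the pathway and marker lists used below, were chosen with earlier results of these data known. Their counts, set beside the share over all probe sets, therefore describe the lists and are no independent test of them. Of the 42, 41 had a probe set of their own, Gbp5 had none, and together they were read by 51 of the 31099 probe sets on the array, which name 14217 genes in all. Rats aged 55 days received N-nitrosomethylurea (NMU), an alkylating agent that induces mammary tumours in susceptible strains, or saline, and the glands were taken at 6 h, 1 d and 30 d. The groups are Cop NMU, Cop control, F344 NMU and F344 control at each time, 12 groups of 3 arrays. Cop is known for its resistance to mammary carcinogens and F344 for its susceptibility. The labels call the replicates biological and do not say whether each array is a separate animal. The p-values below therefore measure the spread between arrays, pooled over the 12 groups, part of which may be technical. The sources used here do not give the NMU dose.

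Type I interferons bind a receptor whose kinases activate transcription factors, among them Stat2, which works with Irf9 in a complex that binds the interferon-stimulated response element (ISRE) in target promoters. Interferon gamma acts through another element, the gamma-activated site (GAS), and through Irf1. The targets block viral replication, sense foreign or misplaced nucleic acids, attach ubiquitin-like tags, cut peptides for antigen presentation and feed back on the pathway. In the mammary gland these genes are read in a mixture of epithelium, fat, vessels and resident leukocytes.

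Probe sets had to exceed the 40th percentile of an array's values on 3 or more arrays to be tested, which left 40 of the 42 members. Ifit1 was read by a probe set that never passed this filter. Where a gene had several probe sets, the one with the highest mean stands for it, and values are the authors' log2 values. Oas1b passed the filter on only 4 arrays, 3 of them F344 NMU arrays at 1 d, so its place among the tested genes rests on the group where it is high. The other 39 tested members also passed without those 3 arrays. The samples carried mammary gland markers, with median log2 values of 10.55 for Epcam and 9.39 for Krt5 (epithelium) and 12.07 for Adipoq (fat). Markers of skeletal muscle varied widely between arrays and differed between the strains' controls, as given below. F344 control replicates 1 and 2 at 1 d differed less than any other replicate pair (root mean square log2 difference 0.163, against 0.232 for the next), and counts that rest on them are also given with both averaged into 1 array. In such bulk samples, fewer cells of a type and less RNA per cell cannot be told apart.

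The promoters of 33 members were found in RefSeq's rat table (build GRCr8), each spanning 250 bases before to 50 bases after the annotated start. The reference genome is that of another strain, Brown Norway, and both strands were searched for fixed letters. An ISRE, written as GAAA, any 2 bases and GAAA, occurred in 21 of the 33 member promoters (63.6%), against 1312 of all 33469 promoters (3.92%). A GAS, written as TTC, any 3 bases and GAA, occurred in 7 of 33 (21.2%), against 8.87% of all promoters. The NF-kB site, written as GGGA, any 2 bases and TTCC, occurred in 2 of 33 (6.06%), against 1.3% of all. The windows below are shown for members on which the values that follow turn. Each runs 5′ to 3′ on the gene's strand with the match in capitals, which reads as the ISRE on the gene's strand or as its reverse complement. In Bst2, Oas1a and Oas1b the longer run of capitals is 2 overlapping matches that share bases.
Irf7: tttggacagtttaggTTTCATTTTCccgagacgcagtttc
Ifit3: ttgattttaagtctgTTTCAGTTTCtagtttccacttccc
Rsad2: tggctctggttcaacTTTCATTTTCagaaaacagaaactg
Gbp2: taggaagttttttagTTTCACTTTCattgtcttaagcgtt
Bst2: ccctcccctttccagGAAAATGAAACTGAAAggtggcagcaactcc
Oas1a: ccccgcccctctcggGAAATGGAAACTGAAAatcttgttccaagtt
Oas1b: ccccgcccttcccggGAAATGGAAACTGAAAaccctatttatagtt
Psmb10: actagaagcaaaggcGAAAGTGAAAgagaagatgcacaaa
Lgals3bp: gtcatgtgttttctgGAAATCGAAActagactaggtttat
Il18bp: ttcctagttcagagaGAAAGTGAAAg

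These windows lie at chr1:205800068-205800107 (- strand) for Irf7, chr1:241527267-241527306 (+ strand) for Ifit3, chr6:48788243-48788282 (- strand) for Rsad2, chr2:234005681-234005720 (+ strand) for Gbp2 and chr16:18255068-18255113 (- strand) for Bst2. Those of the other genes lie at chr12:41330410-41330455 (+ strand) for Oas1a, chr12:41395881-41395926 (- strand) for Oas1b, chr19:50743341-50743380 (- strand) for Psmb10, chr10:104127874-104127913 (- strand) for Lgals3bp and chr1:165786906-165786931 (- strand) for Il18bp. Oas1a and Oas1b, both of the oligoadenylate synthetase family and on chromosome 12, carried the same bases in capitals, and the match began at position -41 from the annotated start in Oas1a and -59 in Oas1b. The Bst2 match holds the same arrangement of overlapping elements and began at -131. The Psmb10 promoter held another, separate ISRE match from -17 to -8 (window chr19:50743285-50743324, - strand), which is not shown, while the one shown began at -73. The Irf1 promoter held no ISRE of these letters but a GAS, as did the Irf9 promoter. Their windows lie at chr10:38417778-38417816 (+ strand) for Irf1 and chr15:33065722-33065760 (+ strand) for Irf9, and the capitals mark the GAS.
Irf1: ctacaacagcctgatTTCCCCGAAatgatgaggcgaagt
Irf9: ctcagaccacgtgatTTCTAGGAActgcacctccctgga

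In F344 glands 1 d after NMU, nearly the whole list was higher than in saline controls. Of the 40 tested members, 37 rose and none fell, 36 of them without Oas1b, whereas 0.983% of all 20748 tested probe sets were called in either direction and 0.81% were called higher (limma, Benjamini-Hochberg adjusted p under 0.05). As the list was chosen with earlier results of these data known, this contrast describes the list and does not test it. The median log2 change over the 40 was 1.24, against -0.004 over all tested probe sets. For 39 of the 40, each F344 NMU array lay above each F344 control array, an arrangement that 9.09% of all probe sets showed. F344 NMU at 1 d held the highest mean of the 12 groups for 37 members. By role, 12 of 12 antiviral effectors rose, 7 of 8 sensors and signalling genes, 7 of 7 modifiers, 4 of 5 proteasome and peptide transport genes, and 7 of 8 others. The 12 effectors, the 39 members without overlap and the 37 highest means include Oas1b, which passed the filter only through these NMU arrays. Of the 37 calls, 35 held whichever array was left out. Epsti1 lost its call when any of 4 arrays was left out (F344 control replicates 1 and 2, F344 NMU replicates 1 and 3) and when the 2 close control arrays were averaged, which left 36 calls, and Psmb10 lost its call without control replicate 3. Over all tested probe sets the averaging left 125 higher and 15 lower calls, against 168 and 36 in the main fit.

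**Figure D1:**
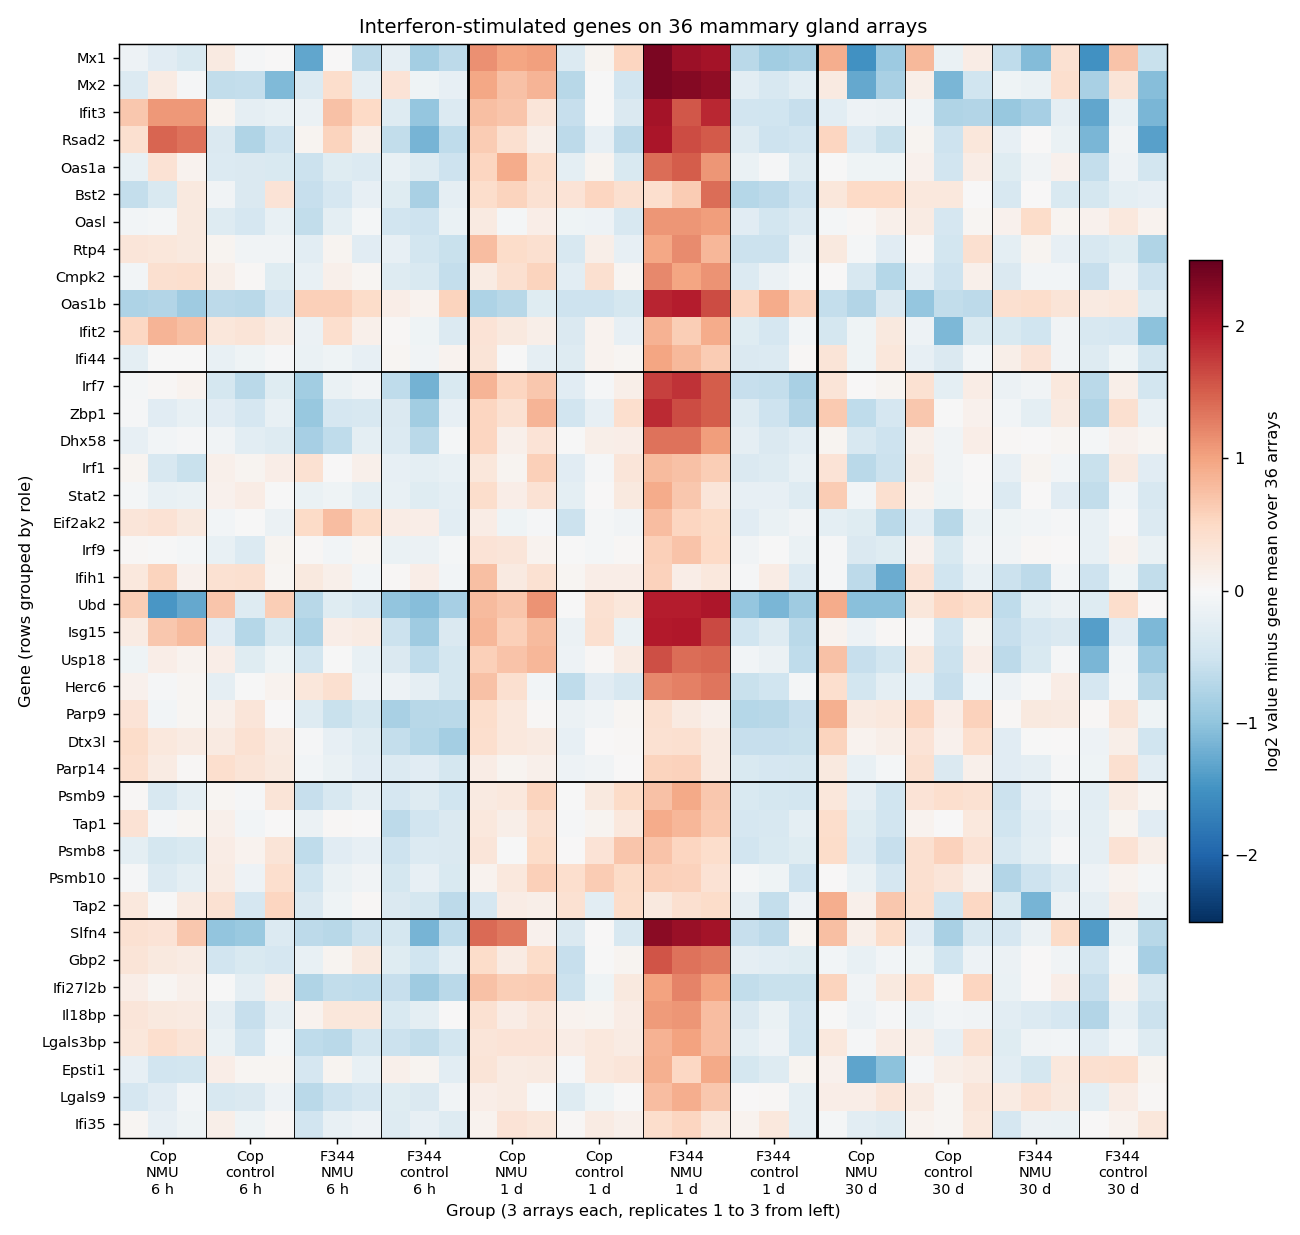
Log2 values of 40 interferon-stimulated genes on 36 arrays, each minus the gene's mean over all arrays (red above, blue below). Columns are groups of 3 arrays by strain, treatment and time, rows are genes grouped by role (from the top: antiviral effectors, sensors and signalling, modifiers, proteasome and peptide transport, others), and the F344 NMU columns at 1 d are the reddest for 37 genes by group mean.

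Among the effectors, Mx1, a dynamin-like GTPase that blocks influenza viruses in rodents, read 10.28, 10.08 and 10.02 on the F344 NMU arrays at 1 d, against 7.26, 7.06 and 7.12 on the F344 controls. The lowest NMU value lay far above the highest control value, and the log2 change was 2.98 (SE 0.479, adjusted p = 0.000355), or 7.89-fold. Ifit3, of the family of proteins that bind foreign RNA ends, read 8.33, 7.82 and 8.15 after NMU, against 5.79, 5.76 and 5.68 in controls. Its control arrays lay within a narrow band and its change was 2.36 (SE 0.254, adjusted p = 3.56e-07). Rsad2, or viperin, which makes a chain-terminating nucleotide, read 8.96, 8.54 and 8.46 after NMU, against 6.60, 6.40 and 6.44 in controls, a change of 2.17 (SE 0.292, adjusted p = 1.76e-05). Its neighbour on chromosome 6, the mitochondrial nucleotide kinase gene Cmpk2, read 8.32, 8.10 and 8.24 after NMU, against 6.78, 6.98 and 7.07 in controls, a rise of 1.28. Oas1a, an enzyme that makes the short adenylate chains activating RNase L, read 8.54, 8.66 and 8.24 on F344 NMU arrays, against 6.99, 7.12 and 6.81 on F344 controls, a rise of 1.51. Oasl, a relative that in human cells augments RNA sensing, read 7.56, 7.57 and 7.50 on F344 NMU arrays, against 6.18, 6.0 and 6.11 on F344 controls, a rise of 1.45. In both genes the arrays of a group lay close together relative to the gap. Bst2, or tetherin, which holds budding virions at the cell surface, read 9.35, 9.56 and 10.31 after NMU, against 8.20, 8.26 and 8.41 in controls. The groups did not overlap, though replicate 3 stood above the other NMU arrays, and the change was 1.45 (SE 0.204, adjusted p = 3.08e-05). The effectors with smaller rises were also free of overlap. Rtp4 read 9.52, 9.74 and 9.38 on F344 NMU arrays, against 8.02, 8.02 and 8.41 on F344 controls, a rise of 1.40. Ifit2, the neighbour of Ifit3 on chromosome 1, read 9.0, 8.75 and 9.06 on F344 NMU arrays, against 7.82, 7.72 and 8.06 on F344 controls, a rise of 1.07. Ifi44 read 8.27, 8.10 and 7.93 on F344 NMU arrays, against 6.93, 6.95 and 7.31 on F344 controls, a rise of 1.04.

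Mx2, the second dynamin-like GTPase, differed between its 2 probe sets. The one with the higher mean read 9.14, 9.08 and 9.0 on F344 NMU arrays at 1 d, against 6.52, 6.39 and 6.53 on F344 controls, a change of 2.59 (SE 0.332, adjusted p = 8.66e-06). The other read 3.56, 3.47 and 3.49 on the same NMU arrays, against 3.35, 3.54 and 3.73 on the controls, and so stayed at the dim end of the array. In Cop this probe set was bright throughout and read 9.15, 9.11 and 8.90 on NMU arrays at 1 d, against 7.68, 8.46 and 8.27 on controls. Over all times it lay between 7.16 and 9.15 on the 18 Cop arrays, against 3.35 and 4.08 on the 18 F344 arrays, where it was at or below the 20.8th percentile of its array, so the size of the strain difference has no measured value. The probe set of higher mean differed by -0.28 between Cop and F344 controls (adjusted p = 0.302). With the mean of both probe sets in place of that one, Mx2 kept its call in F344 at 1 d.

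Oas1b, whose mouse counterpart carries resistance to flaviviruses, showed a strain pattern of its own. It read 6.06, 6.12 and 5.79 on F344 NMU arrays at 1 d, against 4.69, 5.08 and 4.72 on F344 controls, a change of 1.16 (SE 0.16, adjusted p = 2.55e-05). Cop arrays read 3.39, 3.47 and 3.85 after NMU, against 3.63, 3.63 and 3.71 in Cop controls. Over all times the 18 Cop arrays lay between 3.19 and 3.85, at or below the 17.6th percentile of their array, against 3.84 and 6.12 on the 18 F344 arrays. Cop values this near the floor give no measured response and no measured size of a strain difference, and the F344 rise was read on the arrays through which the probe set passed the filter. As Oas1a and Oas1b are close relatives, how far their probe sets read each other's transcripts is not known from these files.

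**Figure D2:**
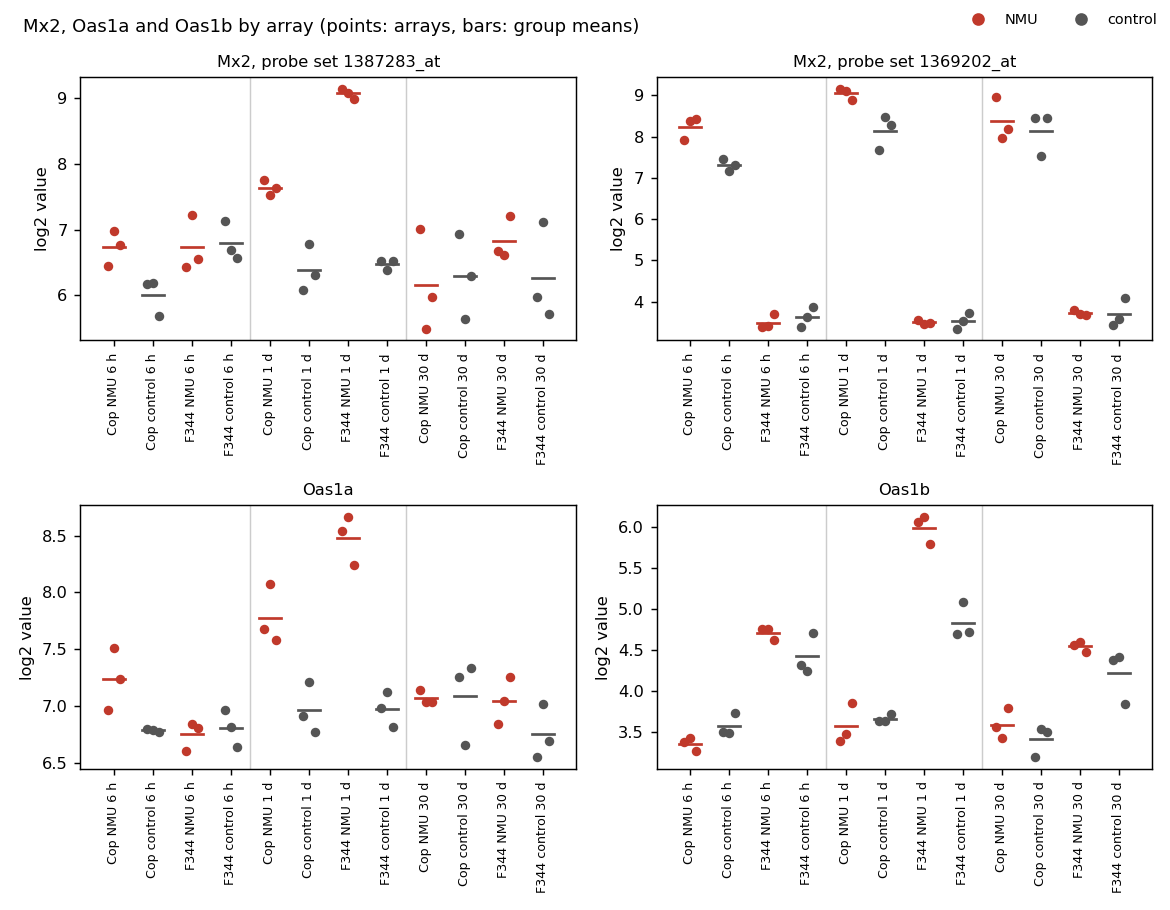
Log2 values (vertical axes) by array for both Mx2 probe sets, Oas1a and Oas1b in the 12 groups (horizontal axes), with points for arrays, bars for group means, NMU in red and control in grey. The Mx2 probe set of higher mean (upper left) and Oas1a are highest in F344 NMU at 1 d, the other Mx2 probe set (upper right) is dim on all F344 arrays, and Oas1b is dim on all Cop arrays.

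Of the sensors and signalling genes, Irf7, a transcription factor that amplifies type I interferon production, changed with the smallest p. It read 10.60, 10.70 and 10.40 on F344 NMU arrays at 1 d, against 8.32, 8.29 and 8.08 on F344 controls, a rise of 2.34 (SE 0.206, adjusted p = 9.89e-09), or 5.05-fold. Zbp1, a sensor of Z-form nucleic acids that can trigger cell death, read 8.66, 8.42 and 8.30 after NMU, against 6.47, 6.28 and 6.06 in controls, with no overlap and a change of 2.19 (SE 0.279, adjusted p = 6.8e-06). Dhx58 (LGP2), a regulator of cytoplasmic RNA sensing, read 7.88, 7.87 and 7.56 after NMU, against 6.31, 6.17 and 6.26 in controls, a change of 1.53 (SE 0.157, adjusted p = 1.59e-07). Its 3 tested probe sets gave the same call and direction. Irf1, the interferon gamma effector, read 9.76, 9.69 and 9.58 after NMU, against 8.60, 8.65 and 8.78 in controls, a change of 1.00 (SE 0.201, adjusted p = 0.00413). The members of the transcription complex rose as well. Stat2 read 9.10, 8.85 and 8.48 on F344 NMU arrays, against 7.98, 7.98 and 7.85 on F344 controls, a rise of 0.88. Irf9 read 9.29, 9.39 and 9.19 on F344 NMU arrays, against 8.59, 8.66 and 8.52 on F344 controls, a rise of 0.70. Eif2ak2 (PKR), the kinase that halts translation on double-stranded RNA, read 8.17, 7.93 and 7.88 on F344 NMU arrays, against 7.12, 7.24 and 7.31 on F344 controls, a rise of 0.78. No F344 NMU array overlapped a control in these genes.

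Among the modifiers, Ubd (FAT10), a ubiquitin-like tag for proteasomal degradation, read 11.65, 11.66 and 11.72 on F344 NMU arrays at 1 d, against 8.74, 8.55 and 8.80 on controls. This was, with Mx1, the largest change of the list, 2.98 (SE 0.413, adjusted p = 4.41e-05), or 7.9-fold. Isg15, the ubiquitin-like protein that interferon attaches to many targets, read 10.51, 10.53 and 10.17 after NMU, against 8.02, 8.19 and 7.84 in controls, a change of 2.39 (SE 0.239, adjusted p = 1.22e-07). The genes that act on Isg15 rose with it. Usp18, the protease that removes it and restrains the receptor, read 9.33, 9.11 and 9.14 after NMU, against 7.64, 7.57 and 7.08 in controls, a change of 1.76 (SE 0.264, adjusted p = 8.27e-05). Herc6, which attaches Isg15 in the mouse, read 7.09, 7.15 and 7.24 after NMU, against 5.34, 5.39 and 5.85 in controls, a change of 1.64 (SE 0.207, adjusted p = 5.79e-06). The ADP-ribosyl modifiers Parp9, Dtx3l and Parp14, which follow each other on chromosome 11 in GRCr8, rose by similar amounts. Parp9 read 9.63, 9.45 and 9.35 on F344 NMU arrays, against 8.51, 8.51 and 8.64 on F344 controls, a rise of 0.92. Dtx3l, the ubiquitin ligase that partners Parp9, read 9.08, 9.10 and 8.92 on F344 NMU arrays, against 8.11, 8.11 and 8.14 on F344 controls, a rise of 0.91. Parp14 read 8.96, 9.0 and 8.65 on F344 NMU arrays, against 8.03, 8.0 and 7.97 on F344 controls, a rise of 0.87.

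The 5 genes of antigen processing had a median change of 0.95, against 1.45 for the 12 effectors, Oas1b included. Psmb9, a catalytic subunit of the immunoproteasome, read 10.55, 10.77 and 10.48 on F344 NMU arrays at 1 d, against 9.44, 9.38 and 9.36 on controls, a change of 1.20 (SE 0.163, adjusted p = 1.77e-05). Tap1, which carries peptides into the endoplasmic reticulum, read 9.24, 9.14 and 8.96 after NMU, against 7.89, 7.90 and 8.07 in controls, a change of 1.16 (SE 0.161, adjusted p = 2.47e-05). Neither gene's groups overlapped. Of the other immunoproteasome subunits, Psmb8 read 10.35, 10.18 and 10.07 on F344 NMU arrays, against 9.16, 9.25 and 9.34 on F344 controls, a rise of 0.95, and Psmb10 read 9.67, 9.66 and 9.44 on F344 NMU arrays, against 9.02, 8.96 and 8.57 on F344 controls, a rise of 0.74. Tap2, the partner of Tap1, read 8.03, 8.20 and 8.24 after NMU, against 7.57, 7.20 and 7.65 in controls, and did not pass the test (0.68, SE 0.27, adjusted p = 0.372). Tap2, Psmb8, Tap1 and Psmb9 follow each other on chromosome 20 in GRCr8.

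Among the remaining members, Slfn4, of the Schlafen family of leukocyte growth regulators, read 10.74, 10.63 and 10.56 on F344 NMU arrays at 1 d, against 7.89, 7.82 and 8.54 on controls, a change of 2.56 (SE 0.3, adjusted p = 2.08e-06). Gbp2, a guanylate-binding protein that attacks pathogen vacuoles, read 10.39, 10.16 and 10.11 after NMU, against 8.58, 8.55 and 8.51 in controls, with the control arrays within 0.1 of each other and a change of 1.67 (SE 0.155, adjusted p = 2.56e-08). Ifi27l2b read 11.60, 11.82 and 11.59 after NMU, against 9.98, 10.03 and 10.03 in controls, a change of 1.65 (SE 0.17, adjusted p = 1.59e-07). Il18bp, a secreted protein that neutralises interleukin 18, read 8.83, 8.88 and 8.54 after NMU, against 7.41, 7.59 and 7.30 in controls, a change of 1.31 (SE 0.125, adjusted p = 4.35e-08). These groups lay apart without exception.

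Lgals3bp, a secreted galectin-binding glycoprotein, read 9.92, 10.07 and 9.84 on F344 NMU arrays, against 8.81, 8.92 and 8.56 on F344 controls, a rise of 1.18. Epsti1 read 8.77, 8.40 and 8.84 on F344 NMU arrays, against 7.45, 7.57 and 7.95 on F344 controls, a rise of 1.01. Lgals9, a galectin, read 9.28, 9.42 and 9.19 on F344 NMU arrays, against 8.54, 8.55 and 8.27 on F344 controls, a rise of 0.85. In none of these genes did NMU and control arrays overlap. Besides Tap2, the members not called were Ifi35, at 8.93, 9.02 and 8.77 after NMU against 8.57, 8.76 and 8.25 in controls, and Ifih1 (MDA5, a sensor of long double-stranded RNA), at 6.52, 6.11 and 6.22 after NMU against 5.91, 6.14 and 5.60 in controls. Their changes were 0.38 (SE 0.122, adjusted p = 0.189) for Ifi35 and 0.40 (SE 0.231, adjusted p = 0.647) for Ifih1, and only Ifih1 among the 40 had overlapping groups. Tested members with an ISRE match in their promoter numbered 20, of which 18, Oas1b among them, were called, and the median change was 1.10. Those without a match numbered 12, of which 11 were called, and the median was 1.24.

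Some markers of cytotoxic lymphocytes also rose in F344 at 1 d. Of 14 T and NK cell markers, 3 rose by limma's test, Gzmb by 2.44 (adjusted p = 9.89e-09), Nkg7 by 1.58 (adjusted p = 1.76e-05) and Gzma by 1.29 (adjusted p = 0.00197), and none fell. The other markers of that list, among them Prf1, Klrd1, Klrb1a, Cd8a and Cd8b, were not called. The score of the 14 markers, the mean deviation from each gene's mean over all arrays, was 0.60, 0.58 and 0.58 on F344 NMU arrays, against -0.07, -0.06 and -0.02 on F344 controls. The defining T cell gene Cd3g read 8.93, 8.95 and 8.90 after NMU, against 8.81, 8.93 and 9.02 in controls. None of the 9 macrophage markers, 3 B cell markers, 2 neutrophil markers or 2 markers listed for plasmacytoid dendritic cells (Tcf4 and Il3ra) was called. Without overlap, the B cell score was 0.54, 0.25 and 0.22 on F344 NMU arrays, against -0.18, -0.30 and -0.27 on controls. For neutrophils it was -0.22, -0.34 and 0.07 against -0.70, -0.63 and -0.56. For Tcf4 and Il3ra it was -0.16, -0.15 and -0.14 against -0.29, -0.39 and -0.22. The basal epithelium score was lower, at -0.57, -0.62 and -0.61 against -0.25, -0.22 and -0.10. The macrophage score overlapped. The part of these cells in the rise of the interferon-stimulated genes was not tested.

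Cop glands answered NMU at 1 d with smaller changes, of which 2 of 40 passed the test, against 0.762% of all tested probe sets in either direction. Oas1a read 7.68, 8.08 and 7.58 on Cop NMU arrays, against 6.91, 7.21 and 6.77 on Cop controls, a rise of 0.82 (SE 0.173, adjusted p = 0.0159). Ifi27l2b read 11.32, 11.19 and 11.21 on Cop NMU arrays, against 10.05, 10.48 and 10.83 on Cop controls, a rise of 0.79 (SE 0.17, adjusted p = 0.0175). Neither gene's groups overlapped, and both genes were also called in F344. The median change over the 40 members was 0.32 in Cop, against 0.01 over all tested probe sets, and 36 of the 40 estimates were above 0, as were 52.3% of all. For 23 members each Cop NMU array lay above each Cop control array, against 7.44% of all probe sets. Slfn4 (1.21, adjusted p = 0.0503), Rtp4 (0.69, adjusted p = 0.0585) and Herc6 (0.80, adjusted p = 0.0604) lay just outside the threshold. The count was 0 without Cop control replicate 1 or Cop NMU replicate 1 or 2, 1 without Cop control replicate 2 or 3, and 4 without Cop NMU replicate 3.

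**Figure D3:**
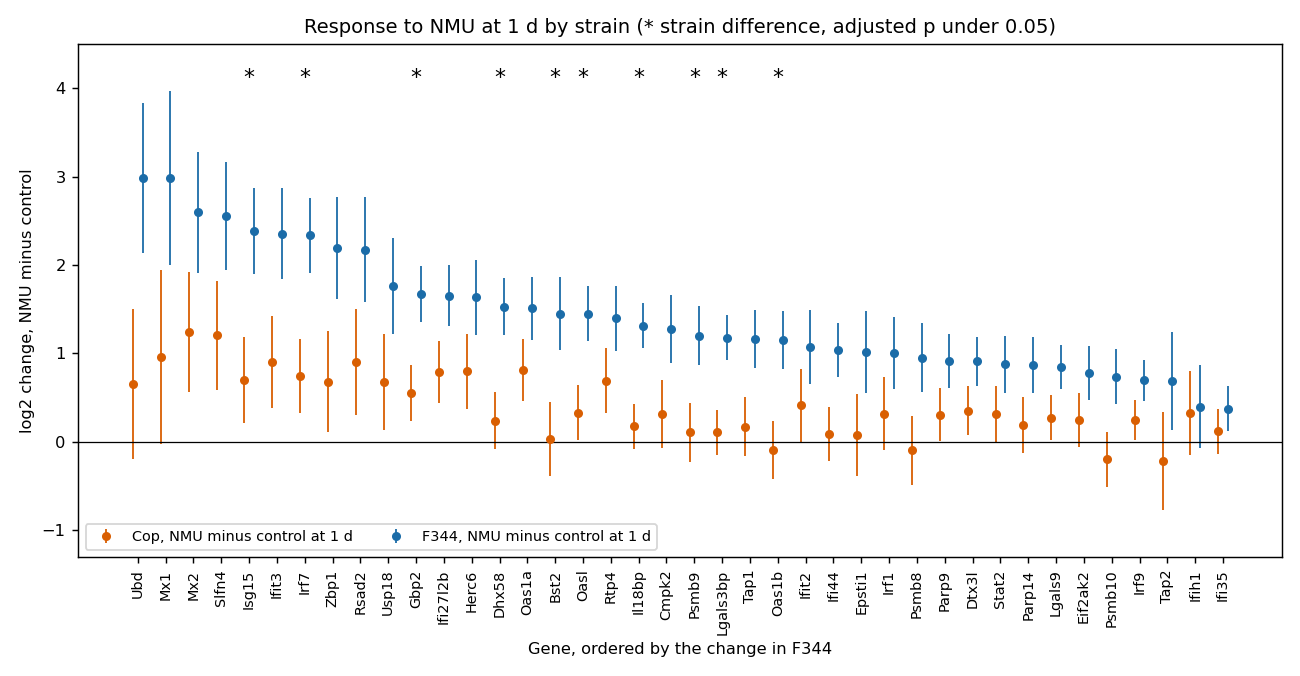
Log2 change of NMU over control at 1 d (vertical axis) for 40 genes ordered by the change in F344 (horizontal axis), with Cop in orange and F344 in blue, points for estimates and lines for 95% confidence intervals. The F344 estimate lies above the Cop estimate for all 40 genes, and asterisks mark the 10 genes whose strain difference passed the test.

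The difference between the strains' responses at 1 d was itself tested, as the Cop response minus the F344 response. It was negative for all 40 members (47.9% of all tested probe sets), with a median of -0.97, and 10 were called, all with the smaller response in Cop, 9 of them without Oas1b, whose Cop values lay near the floor, against 0.207% of all tested probe sets in either direction and 0.193% in this one. Isg15 had the largest called difference, -1.68 (SE 0.337, adjusted p = 0.0211). On the Cop arrays it read 9.35, 9.12 and 9.31 after NMU, against 8.38, 8.92 and 8.36 in controls, where control replicate 2 came close to the NMU values. Irf7 read 9.73, 9.42 and 9.57 on Cop NMU arrays, against 8.61, 8.85 and 9.03 on Cop controls, so both strains' NMU arrays lay above their controls, by different margins (difference -1.59, SE 0.292, adjusted p = 0.0086). Bst2 read 9.36, 9.47 and 9.30 on Cop NMU arrays, against 9.26, 9.46 and 9.32 on Cop controls. The Cop groups overlapped and were level with the lower F344 NMU arrays, and the difference was -1.42 (SE 0.288, adjusted p = 0.0223).

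Dhx58 read 7.06, 6.66 and 6.87 on Cop NMU arrays, against 6.52, 6.67 and 6.68 on Cop controls, a difference between the responses of -1.29 (SE 0.223, adjusted p = 0.00462). Il18bp read 8.14, 7.95 and 8.08 on Cop NMU arrays, against 7.85, 7.85 and 7.95 on Cop controls, with a difference of -1.14 (SE 0.177, adjusted p = 0.00244), and Lgals3bp read 9.37, 9.41 and 9.40 on Cop NMU arrays, against 9.25, 9.32 and 9.27 on Cop controls, with a difference of -1.07 (SE 0.175, adjusted p = 0.00334). In these genes the Cop NMU and control arrays lay close together or overlapped. The remaining called differences were those of Gbp2, Oasl and Psmb9, besides Oas1b. Gbp2 read 9.27, 9.02 and 9.27 on Cop NMU arrays, against 8.23, 8.79 and 8.88 on Cop controls (difference -1.12). Oasl read 6.69, 6.41 and 6.63 on Cop NMU arrays, against 6.36, 6.33 and 6.05 on Cop controls (difference -1.12). Psmb9 read 10.04, 10.08 and 10.38 on Cop NMU arrays, against 9.81, 10.06 and 10.30 on Cop controls (difference -1.09). Irf7, Dhx58, Il18bp and Lgals3bp kept their call (as did Oas1b) whichever array was left out, and the count was 5 without replicate 2 of Cop NMU or Cop control, 6 without F344 NMU replicate 1 or F344 control replicate 2, and 8 with the close F344 control arrays averaged. Over all tested probe sets that averaging left 2 higher and 24 lower calls, against 3 and 40 in the main fit. Ubd (-2.33, 95% interval -3.53 to -1.13, adjusted p = 0.113) and Mx1 (-2.02, 95% interval -3.42 to -0.63, adjusted p = 0.349) had larger estimates and wider intervals and did not pass. On the NMU arrays alone, each Cop array lay below each F344 array for 32 of the 40 members at 1 d, Oas1b among them, against 11.9% of all tested probe sets.

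**Figure D4:**
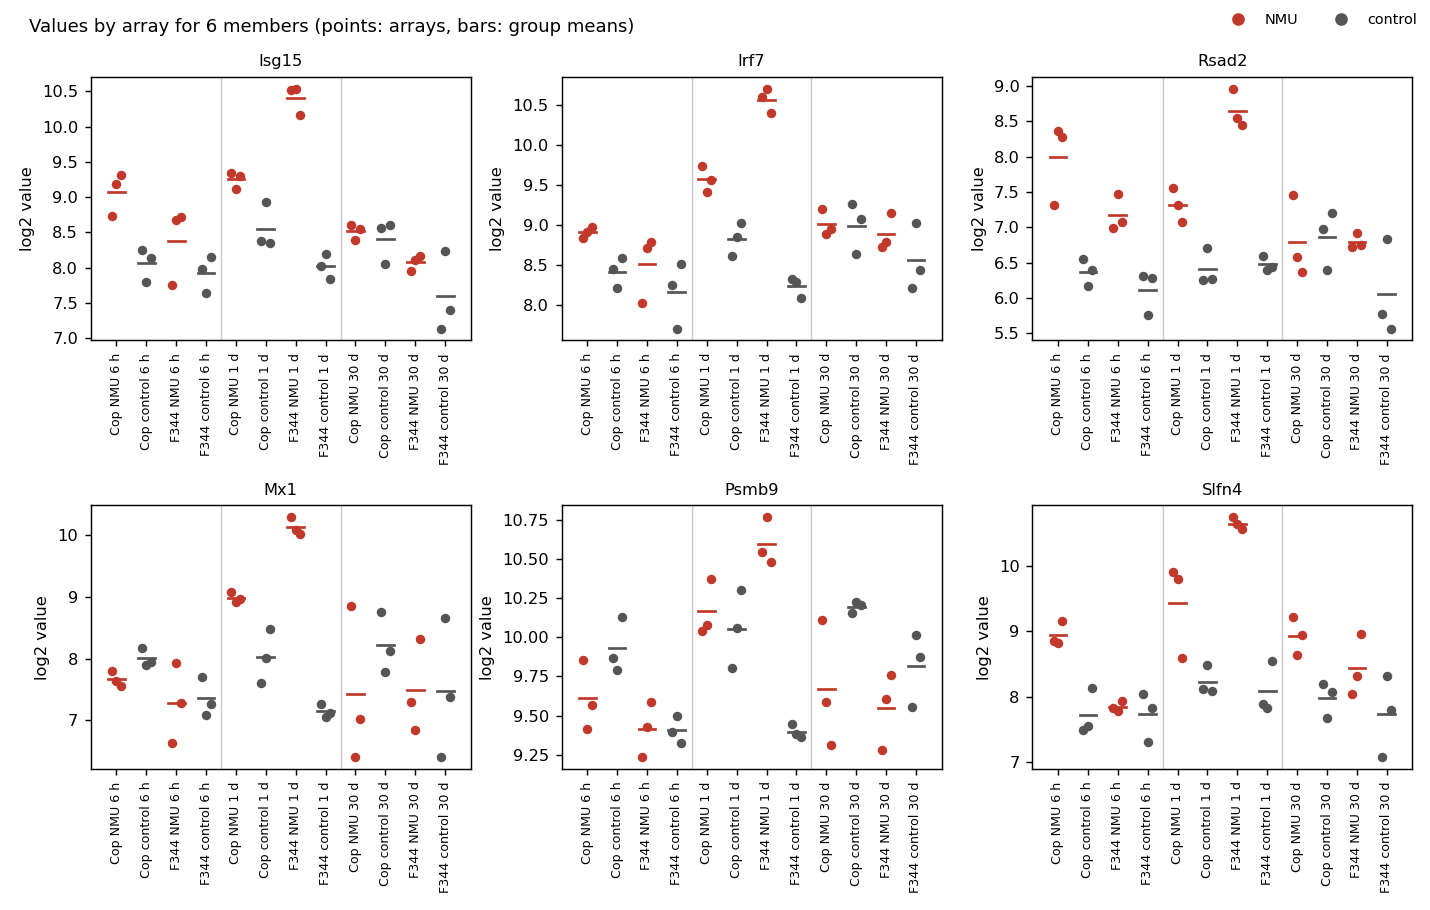
Log2 values (vertical axes) by array for Isg15, Irf7, Rsad2, Mx1, Psmb9 and Slfn4 in the 12 groups (horizontal axes), with points for arrays, bars for group means, NMU in red and control in grey. All 6 are highest in F344 NMU at 1 d, and Rsad2, Isg15 and Slfn4 are also raised in Cop NMU at 6 h.

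At 6 h 7 of 40 members rose in Cop and none fell, against 6.57% of all tested probe sets in either direction and 3.74% higher. Rsad2 read 7.32, 8.37 and 8.28 on Cop NMU arrays at 6 h, against 6.55, 6.16 and 6.39 on Cop controls, a change of 1.62 (SE 0.292, adjusted p = 0.000614), with replicate 1 the lowest of the NMU arrays. Slfn4 read 8.86, 8.82 and 9.16 after NMU, against 7.50, 7.55 and 8.13 in controls, a change of 1.22 (SE 0.3, adjusted p = 0.0116). The other called members had smaller changes. Ifit3 read 6.93, 7.34 and 7.34 after NMU, against 6.32, 6.04 and 6.07 in controls, a rise of 1.06. Isg15 read 8.73, 9.19 and 9.32 after NMU, against 8.25, 7.80 and 8.14 in controls, a rise of 1.02. Slfn4, Ifit3 and Isg15 each lost their call without at least 1 of the arrays. Gbp2 read 9.13, 9.04 and 9.0 after NMU, against 8.33, 8.42 and 8.37 in controls, a rise of 0.68. Il18bp read 8.07, 8.01 and 8.0 after NMU, against 7.55, 7.20 and 7.55 in controls, a rise of 0.59. Lgals3bp read 9.34, 9.47 and 9.37 after NMU, against 8.89, 8.58 and 9.0 in controls, a rise of 0.57. For all 7, no Cop NMU array overlapped a Cop control array. The Mx2 probe sets disagreed here. The one of lower mean, bright in Cop, was called by limma without overlap (0.92, SE 0.234, adjusted p = 0.0138). The one of higher mean, which stands for the gene, was not (0.72, adjusted p = 0.229). The median change over the 40 was 0.12, against -0.002 over all probe sets. The proteasome genes were not among the called members, and Ubd read 10.30, 8.25 and 8.41 after NMU, against 10.38, 9.38 and 10.30 in controls, with replicates 2 and 3 low and replicate 1 level with controls (-1.03, SE 0.413, adjusted p = 0.152). The count was 4 without Cop NMU replicate 3.

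In F344 at 6 h no member passed limma's test, 10 had an unadjusted p under 0.05, and 0.622% of all tested probe sets were called. Rsad2 read 6.99, 7.47 and 7.07 on F344 NMU arrays, against 6.31, 5.75 and 6.28 on F344 controls, without overlap (1.06, SE 0.292, adjusted p = 0.0893), and Ifit3 had a change of 0.91 (SE 0.254, adjusted p = 0.0937). The smallest adjusted p was that of Dtx3l (0.53, SE 0.135, adjusted p = 0.0606). The difference between the strains' responses at 6 h was called for none of the 40 members by limma, with 9 at an unadjusted p under 0.05, against 0.877% of all probe sets called. For Rsad2 it was 0.56 (95% interval -0.29 to 1.41) and for Slfn4 1.10 (95% interval 0.23 to 1.97), so the interval for Rsad2 included 0. Without Cop NMU replicate 1, 1 member was called. Markers of several leukocytes moved at this time. S100a8 rose by 2.35 in Cop and 2.04 in F344, and S100a9 by 2.68 in Cop and 2.36 in F344. The macrophage score in Cop was 0.18, 0.31 and 0.48 on NMU arrays, against -0.32, -0.02 and -0.25 on controls, without overlap, and 2 of 9 markers rose. In Cop at 6 h 5 of 14 T and NK cell markers fell, where 587 of all 20748 tested probe sets fell. The scores were -0.12, -1.14 and -1.10 on Cop NMU arrays, against 0.66, 0.27 and 0.56 on Cop controls, and replicate 1 again stood nearest the controls. In F344 at 6 h this score was also lower without overlap, at -0.42, -0.40 and -0.41 on NMU arrays, against 0.14, 0.06 and -0.15 on controls. The part of these cells was not tested.

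The course over time was tested as the difference between responses. In F344 the response at 1 d exceeded that at 6 h for all 40 members (40% of all tested probe sets), and 18 were called, against 0.347% of all tested probe sets. Mx2 (2.65, SE 0.469, adjusted p = 0.0033) and Slfn4 (2.44, SE 0.424, adjusted p = 0.00285) had large differences and kept their call whichever array was left out. Mx1 had the largest estimate (3.05, SE 0.678, adjusted p = 0.0364), and its call was lost without any of 11 of the 12 arrays, with adjusted p up to 0.164. With the close control arrays averaged the count was 16, and calls over all tested probe sets went from 58 higher and 14 lower to 46 and 12. The response in F344 at 30 d was below that at 1 d for all 40 members (52.8% of all tested probe sets), and 31 were called lower, against 2.16% of all tested probe sets in either direction and 1.79% lower. Ubd differed most, with -3.37 (SE 0.584, adjusted p = 0.00177), followed by Mx1 with -2.97 (SE 0.678, adjusted p = 0.0172) and Ifit3 with -2.15 (SE 0.359, adjusted p = 0.00106). The count was 19 without F344 NMU replicate 1 at 30 d and 23 with the close control arrays averaged. That averaging cut the calls over all tested probe sets from 76 higher and 372 lower to 24 and 210. At 30 d itself no member was called in F344 by limma, 8 had an unadjusted p under 0.05, and 3.29% of all probe sets were called, with 3 members called without F344 control replicate 2 and 2 without F344 NMU replicate 3. Irf7, for example, read 8.73, 8.79 and 9.14 on F344 NMU arrays at 30 d, against 8.21, 9.03 and 8.43 on F344 controls, with the groups overlapping. In Cop no member was called for 1 d minus 6 h (7 at an unadjusted p under 0.05, 2.41% of all probe sets called, 1 member without Cop NMU replicate 1 at 6 h). None was called for 30 d minus 1 d in Cop either (17 at an unadjusted p under 0.05, 0.251% of all probe sets called), where leaving out Cop NMU replicate 1 at 30 d gave 13. The share of all probe sets called without that array is not given here.

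At 30 d in Cop the calls ran mostly downward. Of 40 members, 4 fell and 1 rose, which lies near the background, where 5.48% of all tested probe sets fell, 4.41% rose and 9.9% changed in either direction. The SEs below rest on the spread pooled over the 12 groups, not on that of these arrays. With the compared groups alone, 0 of all tested probe sets were called. Psmb8 read 10.10, 9.29 and 9.06 on Cop NMU arrays at 30 d, against 10.04, 10.20 and 10.01 on Cop controls (-0.60, SE 0.189, adjusted p = 0.0408), and Psmb9 read 10.11, 9.59 and 9.31 after NMU, against 10.15, 10.23 and 10.21 in controls (-0.53, SE 0.163, adjusted p = 0.0377). In both genes NMU replicate 1 lay close to the controls and the other NMU arrays lay below them. Psmb10 read 9.09, 8.91 and 8.67 after NMU, against 9.48, 9.38 and 9.21 in controls (-0.47, SE 0.152, adjusted p = 0.0459), without overlap. Epsti1 read 7.99, 6.58 and 6.88 after NMU, against 7.86, 8.04 and 8.10 in controls (-0.85, SE 0.227, adjusted p = 0.0182), again with replicate 1 among the controls. The member that rose was Slfn4, which read 9.22, 8.63 and 8.93 after NMU, against 8.20, 7.67 and 8.08 in controls (0.95, SE 0.3, adjusted p = 0.0418), without overlap. Ubd, not called, read 10.62, 8.66 and 8.64 after NMU, against 9.98, 10.22 and 10.14 in controls, with the same split of the NMU arrays.

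Lymphocyte markers split the Cop NMU arrays at 30 d in the same way. The T and NK cell score was 0.63, -1.69 and -1.69 on NMU arrays, against 0.72, 0.23 and 0.50 on controls, with 5 of 14 markers falling and none rising. The B cell score was 1.27, -3.02 and -2.53 on NMU arrays, against 1.24, 0.91 and 0.66 on controls, with 2 of 3 markers falling. Cd3g read 9.57, 4.32 and 4.33 after NMU, against 9.83, 9.52 and 9.84 in controls, and Ms4a1 (CD20, a B cell marker) read 9.66, 3.72 and 4.0 after NMU, against 10.05, 9.36 and 9.28 in controls. NMU replicates 2 and 3 were thus near the floor of the array for both genes while replicate 1 was level with controls. The macrophage score was 0.22, 0.45 and 1.08 on NMU arrays, against 0.20, 0.10 and 0.02 on controls, with NMU replicates 2 and 3 the higher ones. Its member Lyz2 ran the other way and read 13.13, 12.25 and 12.64 after NMU, against 13.06, 12.84 and 12.85 in controls. The skeletal muscle score was -3.76, 1.43 and 0.47 on NMU arrays, against -1.02, -0.37 and -0.31 on controls. Of the other marker lists at this time, 2 of 9 macrophage, 3 of 4 endothelial and 2 of 5 fat markers rose, and 1 of 6 luminal, 2 of 5 basal and 3 of 4 milk markers fell. Tcf4 and Il3ra, listed for plasmacytoid dendritic cells, both rose, while Siglech and Spib of that list had no probe set. Tcf4 had a median of 10.44 over all arrays, at the 97.4th percentile of the array, so these genes are no measure of that cell type alone. The part of these cell types in the 30 d calls was not tested. Without Cop NMU replicate 1 the count was 13, and it was 2 without Cop NMU replicate 2, 0 without Cop NMU replicate 3, and 1, 1 and 0 without Cop control replicates 1, 2 and 3 in turn. These counts stand without the share of all tested probe sets called in the same fits, so they are no result about the members. The strain difference in the response at 30 d was called by limma for no member, with 1 at an unadjusted p under 0.05, and for 0% of all tested probe sets.

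**Figure D5:**
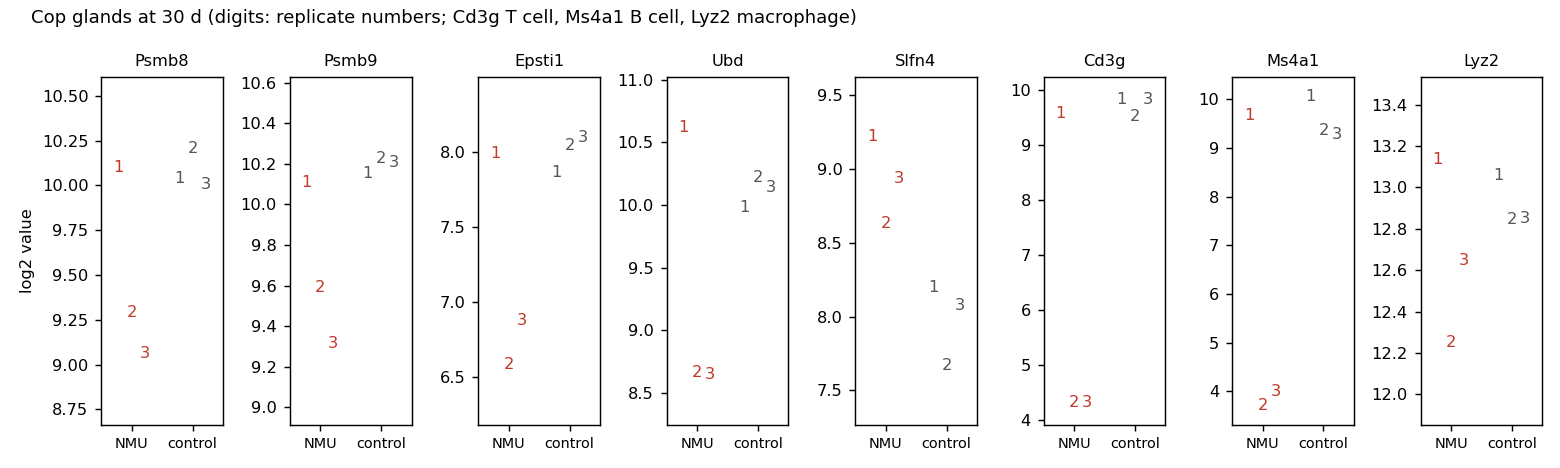
Log2 values (vertical axes, each with its own range) of 5 interferon-stimulated genes and of Cd3g (T cells), Ms4a1 (B cells) and Lyz2 (macrophages) in Cop NMU and Cop control glands at 30 d (horizontal axes), with each array drawn as its replicate number. NMU replicate 1 lies near the controls for Psmb8, Psmb9, Epsti1, Cd3g and Ms4a1, and NMU replicates 2 and 3 lie well below.

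Without NMU, the strains differed in the level of many members. Over the controls of all times 19 of 40 were higher in Cop than in F344 and 1 was lower, where 26.1% of all tested probe sets differed, 13.1% higher and 12.9% lower in Cop. Ubd had the largest difference among the genes higher in Cop, 0.96 (SE 0.238, adjusted p = 0.00369), followed by Mx1 (0.76, SE 0.277, adjusted p = 0.0445), Dtx3l (0.66, SE 0.0781, adjusted p = 2.43e-07) and Bst2 (0.65, SE 0.118, adjusted p = 0.000127). At 1 d Bst2 read 9.26, 9.46 and 9.32 in Cop controls, against 8.20, 8.26 and 8.41 in F344 controls, and Ubd read 9.69, 10.07 and 9.99 in Cop controls, against 8.74, 8.55 and 8.80 in F344 controls, without overlap in either gene. The 5 genes of antigen processing were all higher in Cop controls, Psmb8 by 0.57, Psmb9 by 0.52, Psmb10 by 0.51, Tap2 by 0.46 and Tap1 by 0.42. Parp9 (0.60), Ifi27l2b (0.58), Isg15 (0.50), Usp18 (0.46), Irf7 (0.43), Lgals3bp (0.38), Rtp4 (0.37), Parp14 (0.36), Stat2 (0.30) and Il18bp (0.23) were higher too. Oas1b was the member called lower in Cop, read near the floor there. Mx1 lost its call when the close F344 control arrays were averaged.

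Split by time, 9 members were higher and 1 lower in Cop controls at 6 h (19% of all tested probe sets called in either direction), 10 higher and 1 lower at 1 d (15.2%), and 1 higher and 1 lower at 30 d (2.83%). Oas1b, near the floor in Cop, was the lower one each time, and Ifi27l2b was the higher one at 30 d (0.62, SE 0.17, adjusted p = 0.0413). The immunoproteasome genes were called at 6 h and 1 d, and Psmb10, for example, read 9.49, 9.70 and 9.55 in Cop controls at 1 d, against 9.02, 8.96 and 8.57 in F344 controls. The count at 6 h was 5 without F344 control replicate 1 and 6 without F344 control replicate 3 or Cop control replicate 1 or 3. At 1 d it was 6 without Cop control replicate 3 and 9 with the close F344 control arrays averaged, and at 30 d it was 7 without F344 control replicate 2, 6 without Cop control replicate 2 and 1 without any other single control array. Over all tested probe sets at 1 d the averaging left 731 higher and 1393 lower calls, against 1210 and 1939 in the main fit.

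Several cell type markers differed between the strains' controls at the same times. At 6 h the skeletal muscle score was -1.04, -3.27 and -0.97 in Cop controls, against 1.81, 1.70 and 2.67 in F344 controls, and at 1 d it was -1.24, -0.86 and -2.82 in Cop controls, against 2.03, 1.99 and 2.78 in F344 controls. Muscle markers were thus lower in all Cop controls at both times, with 5 of 9 called lower at each. The luminal epithelium score at 6 h was 0.26, 0.41 and -0.09 in Cop controls, against -0.71, -0.53 and -0.75 in F344 controls, with 2 of 6 markers called higher. The fat marker score at 1 d was -0.47, -0.43 and -0.47 in Cop controls, against 0.48, 0.39 and 0.23 in F344 controls, with 5 of 5 markers called lower. The T and NK cell score at 6 h was 0.66, 0.27 and 0.56 in Cop controls, against 0.14, 0.06 and -0.15 in F344 controls, with none of 14 markers called, and at 1 d it was 0.02, 0.15 and 0.71 in Cop controls, against -0.07, -0.06 and -0.02 in F344 controls. The part of these cell types in the strain differences was not tested.

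Control glands also differed between times. At 30 d, against the earlier times with both strains pooled, 8 of 40 members were higher and 2 lower, where 13.7% of all tested probe sets were higher, 16.4% lower and 30.1% changed in either direction. In either direction the members' count lies under the background, so it is no result about the members, and it was the same with the close control arrays averaged. Parp9 had the largest difference among the higher ones, 0.58 (SE 0.0909, adjusted p = 1.56e-05), and Ifit2 the largest among the lower ones, -0.50 (SE 0.125, adjusted p = 0.00276). Parp9 read 9.75, 9.38 and 9.80 in Cop controls at 30 d, against 9.07, 9.12 and 9.26 at 1 d, and it read 9.26, 9.53 and 9.12 in F344 controls at 30 d, against 8.51, 8.51 and 8.64 at 1 d. The 30 d arrays were the higher ones in both strains. Ifi27l2b (0.37), Oasl (0.37), Irf7 (0.37), Psmb8 (0.33), Dtx3l (0.33), Psmb9 (0.31) and Lgals9 (0.28) were called higher at 30 d too, and Oas1b lower. Between 1 d and 6 h limma called no member, with 5 at an unadjusted p under 0.05 and 0.183% of all tested probe sets called, and 1 member was called without F344 control replicate 3 at 1 d.

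Other genes of the pathway were read from a list of 82 symbols, of which 61 had a probe set and 58 were tested. That list too was chosen with earlier results of these data known. In F344 at 1 d 16 of the 58 rose and none fell, 15 of them among 32 further interferon targets, against 0.81% of all tested probe sets called higher. By smallest p these were led by the GTPases Igtp (1.16, adjusted p = 7.53e-05) and Irgm (0.98, adjusted p = 0.000128), the membrane protein Ly6e (0.76, adjusted p = 8.06e-05), the cytoplasmic DNA exonuclease Trex1 (0.79, adjusted p = 0.000104), the guanylate-binding protein Gbp4 (1.68, adjusted p = 0.000462) and the proteasome activator Psme1 (0.56, adjusted p = 0.000995). None of the 6 receptor chains, 9 kinases and transcription factors or 5 inhibitors was called at 1 d in F344, and none of the 3 ligand genes with a probe set passed the filter on dim values. In Cop at 1 d, 1 of the 58 rose, the purine-degrading enzyme Xdh (0.69, adjusted p = 0.00228), against 0.762% of all tested probe sets called in either direction. At 6 h the interferon gamma receptor chain Ifngr1 rose in both strains, by 0.41 in Cop (adjusted p = 0.0231) and 0.50 in F344 (adjusted p = 0.0325). It was the single call of the 58 in F344, while Trafd1 (0.40) and Sp100 (0.46) also rose in Cop. The 3 of 58 in Cop lie near the 3.74% of all tested probe sets called higher there, and the 1 of 58 in F344 stands beside 0.622% called in either direction. At 30 d 4 of the 58 fell in Cop, Plac8 (-0.87), Psme2 (-0.35), Tapbp (-0.45) and the phosphatase Ptpn6 (-0.85), close to the 5.48% of all tested probe sets that fell, and none was called in F344.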

How the data were processed

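The values are log2 expression values of the authors' deposited table, 1 per probe set and array, for 36 mammary gland samples in 12 groups of 3. Per the labels' protocols, RNA was purified with RNeasy Maxi kits and 1 ug of total RNA was made into biotin-labelled cRNA. The submitters' processing notes name GCOS, and the sources used here do not give the summary and normalization steps. A step of that kind sets the scale of every change, and array medians lay within 0.110 of each other. Values ran from 2.46 to 14.3, and precision is limited by how many arrays there are.

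The 57 control probe sets were left out, 1 probe set naming a member together with another gene was left out, and 20748 of 31099 probe sets passed the filter. A linear model of the 12 groups was fitted on all 36 arrays with limma 3.58.1 (R 4.3.3, trend and robust options), and p-values were adjusted by Benjamini-Hochberg within each of 19 comparisons over all tested probe sets. A call is an adjusted p under 0.05. The code was tested on simulated data. Tables and figures were made with Python 3.11.15, pandas 2.3.3 and matplotlib 3.10.9. The members and the lists of pathway genes and cell markers were chosen with earlier results of these data known. Array values are given for the members of largest change in F344 at 1 d, up to 4 a role, for members called in any other comparison and for those not called in F344 at 1 d. Other pathway genes are named where called, up to 6 a comparison by smallest p.

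Replicate numbers are shared between groups. Deviations from the group means of same-numbered NMU and control arrays correlated above 0.1 for every pair only in Cop at 6 h (0.114, 0.142 and 0.435) and Cop at 1 d (0.202, 0.424 and 0.315), and the labels give no shared litter or day. The alternatives tried were no filter, a filter at the 60th percentile, quantile normalization, values floored at the 20th percentile, no trend or robust options, a replicate block, the compared groups alone, averaging the probe sets of a gene and leaving out each array. Averaging the close F344 control pair, and a block only in the Cop sets at 6 h and 1 d, were added after seeing the data.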

Additional observations from a re-analysis of the deposited data

Results flagged for a closer look

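The response to NMU at 1 d differed between the strains by a test of the difference itself (limma, interaction of strain and treatment) for 10 members, each with the smaller response in Cop. Of all tested probe sets, 0.207% were called in either direction. The differences, Cop minus F344 on the log2 scale, were -1.68 for Isg15, -1.59 for Irf7, -1.42 for Bst2, -1.29 for Dhx58, -1.25 for Oas1b, -1.14 for Il18bp, -1.12 for Gbp2, -1.12 for Oasl, -1.09 for Psmb9 and -1.07 for Lgals3bp. Oas1b was tested only through the F344 NMU arrays at 1 d and lay near the floor on all Cop arrays, so its value is not a measured difference and 9 members remain without it. The response in F344 also differed between times by the same kind of test. It did so for 18 members between 1 d and 6 h (0.347% of all tested probe sets in either direction). Between 30 d and 1 d it did so for 31 members (2.16% of all tested probe sets in either direction).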

How the results depend on the processing

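No called change turned its sign under any alternative. Counts of members called that moved by over 1.5 times are as follows. Quantile normalization gave 4 in Cop at 1 d, 1 for the strain difference at 6 h, 4 for controls at 30 d between strains and 1 for controls at 1 d against 6 h. Between strains in controls at 30 d the count was 1 with a floor at the 20th percentile, with a filter at the 60th percentile or without trend and robust options, and 0 with the compared groups alone. The filter at the 60th percentile gave 1 in F344 at 30 d and 4 in Cop at 1 d, and no filter gave 2 in Cop at 30 d. The compared groups alone gave 13 in Cop at 6 h, 7 in Cop at 1 d, 0 in Cop at 30 d, 18 for the strain difference at 1 d and 1 for 1 d minus 6 h in Cop. Over all probe sets that setting called 0 in Cop at 30 d, against 916 higher and 1138 lower in the main fit. In Cop at 6 h it called 1176 higher and 965 lower, against 777 and 587. For the strain difference at 1 d it called 28 higher and 113 lower, against 3 and 40. The member counts of this paragraph alone are thus no result about the members. Averaging the probe sets of a gene gave 1 in F344 at 6 h, 1 in F344 at 30 d and 6 in Cop at 1 d. The cause was not tested. Over all probe sets in F344 at 6 h, 78 calls were higher and 51 lower, while quantile normalization gave 62 higher calls and 84 lower ones.

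With each array left out in turn, the count ran between 36 and 37 in F344 at 1 d, 0 and 3 in F344 at 30 d, 4 and 8 in Cop at 6 h, 0 and 4 in Cop at 1 d and 0 and 13 in Cop at 30 d, and was 0 throughout in F344 at 6 h. For the strain difference it ran between 0 and 1 at 6 h and 5 and 13 at 1 d, and was 0 throughout at 30 d. Between times it ran between 14 and 19 for 1 d minus 6 h and 19 and 30 for 30 d minus 1 d in F344, and between 0 and 1 and between 0 and 13 for the same differences in Cop. Between strains in controls it ran between 16 and 25 over all times, 5 and 12 at 6 h, 6 and 11 at 1 d and 1 and 7 at 30 d. For controls it ran between 0 and 1 for 1 d against 6 h and 7 and 12 for 30 d against earlier. These counts stand without the share of all tested probe sets called in the same fits.

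With a replicate block in all sets the count was 36 in F344 at 1 d, 1 in F344 at 30 d and 11 for the strain difference at 1 d. Of all 20748 tested probe sets, that block called 178 higher and 49 lower in F344 at 1 d and 118 higher and 461 lower in F344 at 30 d. For the strain difference at 1 d it called 5 higher and 29 lower. The block in the Cop sets whose numbers paired gave 7 at 6 h and 3 at 1 d in Cop and ended no call. Over all tested probe sets it called 764 higher and 588 lower at 6 h, and 83 higher and 63 lower at 1 d. With 3 arrays a group, changes under the spread between arrays were not detectable.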
